A study of Mus musculus with 9 samples.

Results

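The 3 libraries described here came from embryonic mouse ventricle cells transfected with a negative control siRNA, an siRNA with no intended target. They were chosen by their titles and make up 3 of the 9 libraries of the series. The other 6 libraries, from cells given siRNA against Dnmt3a or Dnmt3b, were not used. Ventricles of outbred CD-1 embryos were taken at embryonic day 13.5 and pooled within a litter, so each library can hold both sexes. The tissue was dispersed with papain, and the cells that stayed in suspension during a 1 h attachment step were plated on gelatin in medium with 10% fetal bovine serum. After 48 h the cells received 0.012 pmol of the siRNA by lipofection, and 72 h later they were collected, sorted magnetically with an antibody to VCAM1, and used for poly(A) RNA sequencing. All 3 libraries share the strain, stage, culture, transfection and sort. The labels do not say whether libraries 1 to 3, here control 1 to 3, came from separate litters or cultures, and the spread between them may be technical. No groups were compared and no test was run: each value is a level in these cultures, with its spread over 3 libraries.

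The ventricle wall at this stage holds cardiomyocytes, endocardial and endothelial cells, an outer epicardial layer, and mesenchymal cells that derive from the epicardium and become fibroblasts and mural cells. Cardiomyocytes build sarcomeres from isoforms that shift during development: Myh7 and Tnni1 prevail in the fetal ventricle, and Myh6 and Tnni3 in the adult mouse ventricle. VCAM1 is an adhesion molecule that binds integrins, and it has been used to enrich embryonic cardiomyocytes. The step that removes quickly attaching cells serves to deplete fibroblasts.

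Reads counted in genes numbered 35896018, 31480073 and 27852412 in controls 1, 2 and 3, and 24204, 23519 and 23373 genes had a count. The tables also record alignments that were not unique, at 41.3% to 42.5% of each total, and these enter no gene. Levels are given on 2 scales. CPM is counts per 1000000 counted reads after TMM scaling (a correction for a few genes taking a large share) and follows how many fragments a gene gave, so long genes stand higher. TPM is counts per base of annotated exon, scaled to a sum of 1000000 over protein-coding genes, and serves to compare genes. Where the length of a gene's longest protein-coding transcript, in place of the union of all its exons, moves a ratio by more than 1.5 times or changes which gene leads, that value is given too, as the value on transcript length. Of 21551 protein-coding genes, 17994 had a count in at least 1 library and 12258 reached 1 TPM in all 3. Counts of list members at 1 TPM given below are to be read against that share. Control 2 stood apart from the others: the biological coefficient of variation (the spread between libraries beyond counting error) was 0.18 over all 3 libraries and 0.140 without control 2, against 0.190 without control 1 and 0.202 without control 3.

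Transcripts for extracellular matrix headed the list on both scales. Col1a1 (chr11:94936224-94953042, GRCm38, + strand), a chain of type I collagen, was first by mean CPM, at 20127, 30376 and 20110 in controls 1 to 3. Fn1, the adhesive matrix protein fibronectin, was next, at a CPM of 21412, 20011 and 22701. Control 2 had the highest Col1a1 and the lowest Fn1, so the order of these genes differed between libraries: Col1a1 led in control 2 and Fn1 in controls 1 and 3. The next protein-coding genes by CPM were Col1a2 (10505 ± 2926, SD, n = 3), Col3a1 (8504 ± 1880), Sparc (6891 ± 472), Col4a1 (6741 ± 680), Thbs1 (6247 ± 1275), Col5a2 (5369 ± 864), Bgn (5049 ± 273) and Col4a2 (4891 ± 535). They encode fibrillar and basement membrane collagens, the collagen-binding proteins osteonectin and biglycan, and thrombospondin 1. Of the 20 genes with the highest CPM, 12 belong to the 56-gene list of core matrix genes and 6 are collagens, and the others include Flna, Actb, Acta2 and Eef2. The 10 most abundant genes held 10.1% ± 1.18 of the counted reads, and the 100 most abundant held 25.7% ± 1.28.

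Of those 20 genes, 13 were also among the first 20 protein-coding genes by TPM, and 3 of the rest are not protein-coding. Col1a1 stayed first, with 15343, 22096 and 15224 TPM. Igfbp7, a secreted protein that binds insulin-like growth factors, moved from place 26 by CPM to place 2 by TPM, with 5770, 9864 and 12612 TPM. Its 3 values spread more than those of most leading genes, with the lowest in control 1. Cytoskeletal genes were also high: Acta2 had 8394 ± 1481 TPM, Actb 7963 ± 339, Tagln 5373 ± 1271 and Tmsb4x 5169 ± 1024. Lgals1, which encodes the lectin galectin-1, had 5194 ± 894 TPM. Acta2 and Tagln encode the actin and an actin-binding protein of smooth muscle and of contractile fibroblasts. B2m, the light chain of MHC class I, had 3729, 2188 and 4455 TPM and was lowest in control 2. On transcript length, 17 of the first 20 genes by TPM stayed among the first 20. The first 110 protein-coding genes carried 25% of the TPM total, 729 carried 50% and 2614 carried 75%.

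**Figure D1:**
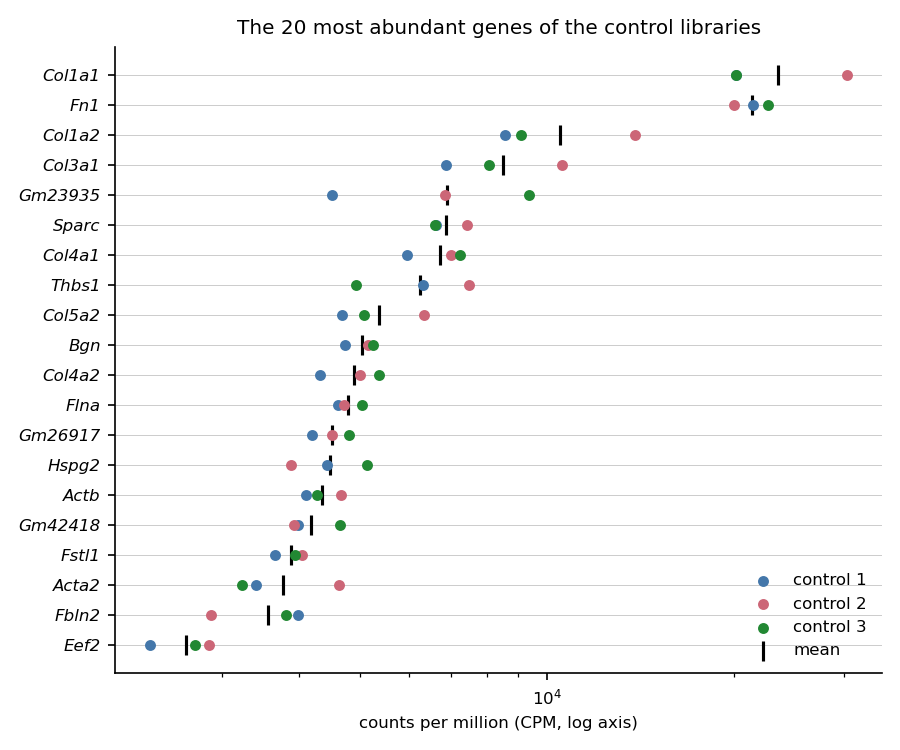
CPM on a log axis for the 20 genes with the highest mean CPM, with 1 coloured point per control library and a bar at the mean. The point of control 2 for Col1a1 lies at 30376, to the right of the other libraries at 20127 and 20110, while the points of Fn1 lie together between 20011 and 22701.

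3 of the first 20 genes by CPM are not protein-coding, and they set which scale can be used. Gm23935, annotated as a microRNA of 57 bases on chromosome 16, took 0.460%, 0.682% and 0.930% of the counted reads, and none of its 50-base words was unique among annotated transcripts. With Mir6236, Gm42418, Gm26917 and Gm15564 it took 1.37%, 1.61% and 1.97% of the counts, but 27.7%, 35.2% and 43.5% of the counts per base over all annotated genes. TPM was therefore scaled over protein-coding genes only, a choice made after these values were seen. No level is read for these 5 loci. All 37 mitochondrial genes, and the 7 globin genes among the erythroid markers, are listed at 0 in the 3 libraries.

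The labels call the cultured cells embryonic cardiomyocytes, and the cardiomyocyte markers were present. Tnnt2, cardiac troponin T (chr1:135836354-135852260, + strand), had 584, 502 and 411 TPM and stood at place 257 among protein-coding genes by exon union. On transcript length its level was 2316 TPM ± 396, near that of B2m (2486 TPM), which stood at place 26 on that length. The union of annotated Tnnt2 exons is far longer than its coding transcript. Myh6, the alpha heavy chain of cardiac myosin (chr14:54941921-54966927, − strand), had 415, 572 and 664 TPM and stood at place 214. Tnnt2 was highest in control 1 and Myh6 lowest there, so these markers of the same cell type did not move together across the libraries. Actc1, cardiac actin, had 1177 ± 180 TPM. All 29 genes of the sarcomere list reached 1 TPM in every library, as did 12258 of all 21551 protein-coding genes. Tpm1 led the list at 1713 ± 201 TPM, but it also has smooth muscle transcripts.

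Fibroblast and matrix transcripts outweighed the sarcomere. The summed level of 30 fibroblast and matrix genes was 11.0, 10.1 and 10.6 times that of the 29 sarcomere genes, a mean ratio of 10.6 ± 0.494, and 8.13 ± 0.326 on transcript length. The 56 core matrix genes carried 10.7% ± 0.899 of the protein-coding TPM, the sarcomere list 0.709% ± 0.0975 and 80 ribosomal protein genes 1.73% ± 0.148. These shares depend on the scaling: the matrix share was 6.12% when scaled over all genes, and the ribosomal protein share was 0.535% with no length scaling. Many ribosomal protein genes have processed copies in the genome, and reads that align to more than 1 place are not counted. Among the first 100 genes by TPM on exon union, 22 were core matrix genes and 2 were sarcomere genes. These counts were not taken on transcript length, where Tnnt2 stood higher. In RNA from a mixed culture, fewer cells of a type and less RNA per cell cannot be told apart, so these ratios are not ratios of cells. The ratio also depends on which genes stand in each list, and Tpm1, the highest sarcomere gene, also has smooth muscle transcripts.

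Epicardial genes were well represented. Msln, a surface protein of mesothelium, had 792, 805 and 846 TPM. Upk3b, a uroplakin of mesothelial cells, had 814, 632 and 941 TPM, and Upk1b had 881 ± 145 TPM. Wt1, a transcription factor of the epicardium, had 99.2, 106 and 107 TPM, and Tcf21, a factor of epicardium and cardiac fibroblasts, had 392 ± 47.8 TPM. All 17 measured members of the epicardial list reached 1 TPM in every library, as did 12258 of all 21551 protein-coding genes. The sum of the 17 was 5380, 4511 and 5640 TPM, lowest in control 2.

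Smooth muscle genes differed widely in level. Acta2, Tagln and Myl9 were among the most abundant genes, with Myl9, a regulatory myosin light chain, at 1930 ± 352 TPM. Myh11, the smooth muscle myosin heavy chain that marks mature smooth muscle, had 3.70, 19.9 and 5.44 TPM. Rgs5, a pericyte marker, had 6.61, 1.85 and 2.65 TPM. Control 2 had the highest Myh11 and the lowest Rgs5 of the 3. Pdgfrb, the receptor of mural cells and fibroblasts, had 266 ± 37.6 TPM.

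Defining genes of blood vessels and leukocytes were low. Pecam1, an adhesion molecule of endothelium, had 5.11, 11.2 and 4.24 TPM and stood at place 10158. Cdh5, the endothelial cadherin, had 12.1, 29.2 and 14.4 TPM, and Kdr, the main VEGF receptor, 1.08 ± 0.213 TPM. Both Pecam1 and Cdh5 were highest in control 2. Eng (218 ± 28.5 TPM) and Ptprb (137 ± 14.7 TPM) led the endothelial list and stood far above those genes. Of its 20 members 15 reached 1 TPM in every library, as did 12258 of all 21551 protein-coding genes. Csf1r, the receptor that macrophages need, had 3.45, 7.31 and 6.41 TPM, and C1qa, a complement gene of tissue macrophages, had 6.99, 34.3 and 29.7 TPM. Ptprc, the pan-leukocyte gene CD45, stayed below 1 TPM at 0.150, 0.351 and 0.422. The macrophage list summed to 73.1, 183 and 214 TPM, and 11 of its 12 members at 1 TPM or more in all libraries were lowest in control 1, where 26.4% of all protein-coding genes at that level were lowest.

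Defining markers of several other cell types were at or near 0. Sox10, of neural crest and Schwann cells, had 1, 1 and 0 counts. Myod1, of skeletal muscle, had 0 counts in all 3 libraries, for which 3 counts per library is the limit that a count of 0 allows. Alb, from liver, had 1, 3 and 0 counts. Tubb3, a beta-tubulin best known from neurons, had 341, 175 and 215 TPM and made up nearly all of the Schwann and neural sum, of whose 12 genes 3 reached 1 TPM in every library. Sox9 (70.5 ± 25.7 TPM), Acan (50.8 ± 13.0 TPM) and Scx (43.8 ± 8.06 TPM), genes of cartilage and tendon that valve cells also express, were present, while Ibsp of bone had 0 counts.

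**Figure D2:**
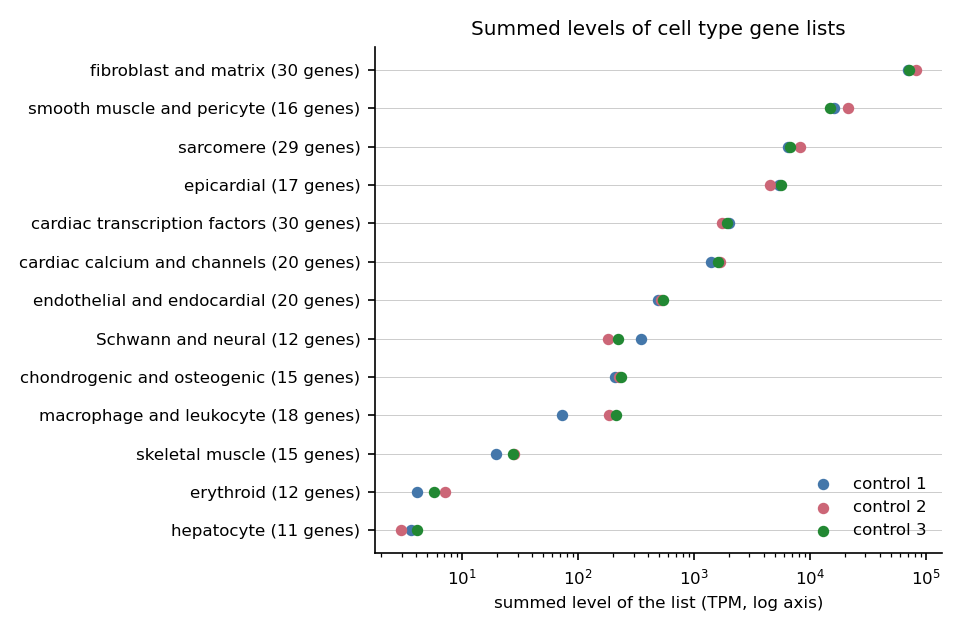
Summed TPM of 13 cell type gene lists on a log axis, with 1 point per control library and the number of genes beside each list. The fibroblast and matrix list sums to between 70666 and 82495 TPM, the sarcomere list to between 6405 and 8207, and the macrophage list to between 73.1 and 214.

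The sorted protein itself was moderately expressed. Vcam1 (chr3:116109949-116129688, − strand) had 153, 149 and 198 TPM, place 1132 among protein-coding genes, and 307 ± 50.4 TPM on transcript length. Since the cells were sorted on this protein, its presence describes the sort. Itgb1, the beta-1 integrin that pairs with VCAM1-binding alpha chains, had 2693 ± 75.7 TPM. The alpha chains themselves were lower: Itga4 had 79.4, 54.8 and 84.7 TPM and Itga9 had 38.0, 46.1 and 43.6 TPM, with Itga4 above Itga9 in all 3 libraries. Cd81 (1265 ± 130 TPM), Cdh11 (434 ± 23.7 TPM) and Mcam (430 ± 44.1 TPM) were the next surface genes, and 25 of 26 in the list reached 1 TPM in every library, the exception being Ptprc.

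Isoform choice was examined in 87 gene families. The same member led in all 3 libraries in 75 of them, and in 41 the leader exceeded the next member 4-fold or more, as the geometric mean over libraries. In 26 families the leader was less than 2-fold above the next, and in 12 the leader changed under another definition of gene length. Families of the last kind are given as shared between their members.

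**Figure D3:**
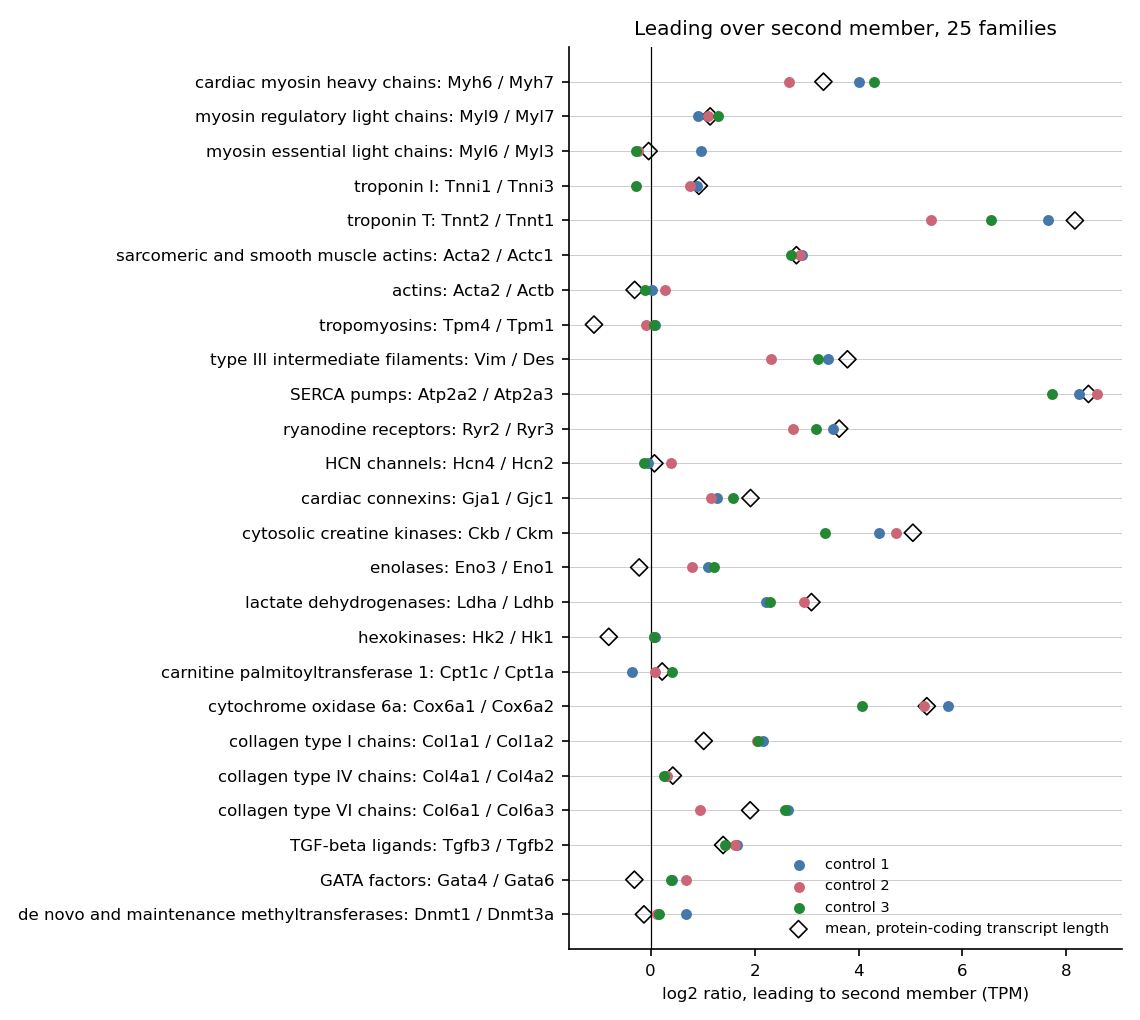
Log2 ratio of the leading to the next member in TPM for 25 gene families, with 1 coloured point per control library and an open diamond for the mean on transcript length. Families such as troponin T and cardiac connexins lie on 1 side of 0 in all 3 libraries, while actins, tropomyosins and hexokinases lie near 0.

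In the thick filament, the adult-type heavy chain prevailed. Myh6 (415, 572 and 664 TPM) exceeded its neighbour Myh7 (chr14:54970684-54994626, − strand), at 25.8, 90.01 and 33.97 TPM, 16.1-, 6.35- and 19.6-fold. The ratio was lowest in control 2, where Myh7 was highest. In the less unique gene of the pair, 79.8% of 50-base and 66.4% of 25-base transcript words were found in no other annotated gene. Among regulatory light chains, the atrial Myl7 (872, 1080 and 747 TPM) exceeded the ventricular Myl2 (141, 244 and 217 TPM) 6.19-, 4.43- and 3.44-fold, and 2.14 ± 0.635-fold on transcript length. Myl9, the smooth and nonmuscle chain, exceeded Myl7 2.15-fold. The essential light chains were shared: Myl6 had 119 ± 21.1 TPM, Myl3 114 ± 51.3 and Myl4 42.7 ± 10.8, and on transcript length Myl3 led. Mybpc3, the cardiac myosin binding protein C, had 188 ± 31.0 TPM, 249-fold above Mybpc2.

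In the thin filament, the fetal and adult troponin I isoforms were close. Tnni1, the fetal form, had 52.8, 89.5 and 40.2 TPM, and Tnni3, the adult cardiac form, had 28.3, 53.0 and 48.7 TPM. Their ratio was 1.87, 1.69 and 0.825, so Tnni1 led in controls 1 and 2 and Tnni3 in control 3. On transcript length the ratio was 2.58, 2.34 and 1.14, and Tnni1 led in all 3. Cardiac troponin T showed no such mixture, with Tnnt2 92.4-fold above the slow skeletal Tnnt1 and 287-fold on transcript length, and troponin C reads came from Tnnc1 alone (190 ± 30.0 TPM), with Tnnc2 at 0 counts. Tropomyosins were shared between Tpm4 (1738 ± 85.3 TPM) and Tpm1 (1713 ± 201 TPM), and on transcript length Tpm1 led with a Tpm4 to Tpm1 ratio of 0.470. Tpm4 is mainly nonmuscle, while Tpm1 has both striated and smooth muscle transcripts that these gene totals do not separate.

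Actins show how far counting by gene can separate near-identical copies. Acta2, the smooth muscle form, had 7768, 10086 and 7329 TPM. Actc1, the cardiac form, had 1032, 1379 and 1121 TPM, and Acta1, the skeletal form that embryonic heart also expresses, had 41.7, 62.1 and 30.8 TPM. Acta2 exceeded Actc1 7.13 ± 0.520-fold, and Actc1 exceeded Acta1 24.7-, 22.2- and 36.4-fold. The 3 genes encode nearly identical proteins, yet their coding sequences, each 1134 bases long, differ throughout: Actc1 and Acta2 are 82.5% identical and share no run of 50 bases. The first 60 coding bases of each gene are printed to show this, from GENCODE M21 (GRCm38), 5′ to 3′, with capitals at the bases that differ from Acta2, 14 in Actc1 and 17 in Acta1. They lie at chr19:34252494-34252553 (Acta2), chr2:114051972-114052031 (Actc1) and chr8:123893638-123893697 (Acta1), all on the − strand.
Acta2: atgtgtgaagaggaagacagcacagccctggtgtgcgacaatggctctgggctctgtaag
Actc1: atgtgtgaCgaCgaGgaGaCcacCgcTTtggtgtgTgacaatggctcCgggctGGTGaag
Acta1: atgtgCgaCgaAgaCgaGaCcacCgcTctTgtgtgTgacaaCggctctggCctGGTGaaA
Reads of 50 bases from the coding part can thus be told apart between Actc1, Acta1 and Acta2, none of which shares a 50-base word with another of the 3. Actb (7963 ± 339 TPM) and Actg1 (31.3 ± 4.78 TPM), the nonmuscle actins, are 88.7% identical and share 30 of 1079 words of 50 bases, and only 58.7% of the 25-base words of Actg1 are unique among annotated transcripts. The level of Actg1 is therefore uncertain. Acta2 and Actb were close, with a ratio of 1.02, 1.21 and 0.926, and Actb led on transcript length.

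In the Z-disc and cytoskeleton, forms of nonmuscle cells led. Actn1 (1125 ± 52.7 TPM) and Actn4 (809 ± 23.9 TPM), the nonmuscle alpha-actinins, stood above the sarcomeric Actn2 (101, 157 and 118 TPM). Vim, the intermediate filament of mesenchymal cells, had 2726, 2672 and 2531 TPM, 7.91-fold above the muscle filament Des (255, 536 and 273 TPM). Des was highest in control 2 and on transcript length Vim exceeded it 13.8-fold.

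Among calcium handling genes, the members used in heart led their families, but these gene totals do not separate transcripts or cell types. Atp2a2, the SERCA2 pump that refills the sarcoplasmic reticulum, had 564, 623 and 626 TPM, 290-fold above Atp2a3. Jph2, which anchors that reticulum to the cell membrane, had 428, 547 and 556 TPM. Pln, the inhibitor of the pump, had 65.5 ± 14.4 TPM and the atrial inhibitor Sln 1.69 ± 0.153 TPM. Ryr2, the calcium release channel, was low at 8.58, 12.8 and 13.4 TPM, as were Cacna1c (12.4 ± 1.72 TPM), the L-type channel, and Slc8a1 (19.2 ± 3.19 TPM), the sodium-calcium exchanger. Each of these 3 was nonetheless the leading member of its family in all libraries, 8.86-, 16.5- and 11.1-fold above the next.

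Among channels and hormones, no order held between pacemaker channels. Hcn4 had 10.2, 16.2 and 13.3 TPM and Hcn2 10.6, 12.4 and 14.5 TPM, and Hcn4 led only in control 2. Gja1, the connexin of working myocardium and many other cells, had 99.4 ± 5.42 TPM, above Gjc1 (39.2 ± 3.76 TPM) 2.44-, 2.24- and 3.00-fold. Nppa, the atrial natriuretic peptide that embryonic ventricle also makes, had 197, 320 and 234 TPM and Nppb 36.7, 46.0 and 50.6 TPM.

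The matrix genes formed ordered sets. Col1a1 exceeded Col1a2, its partner in the type I trimer of 2 Col1a1 chains and 1 Col1a2 chain, 4.46-, 4.15- and 4.19-fold by exon union and 2.03 ± 0.0811-fold on transcript length. The union of Col1a2 exons is 12426 bases and its longest protein-coding transcript 5348, which sets the gap between those values. Col4a1 and Col4a2, the paired chains of basement membrane collagen, differed by 1.23-, 1.24- and 1.20-fold. Fibrillar collagens beyond type I were led by Col3a1 (4243 ± 827 TPM) and Col5a2 (2744 ± 369 TPM). Type VI collagen was uneven: Col6a1 had 423, 356 and 360 TPM, and Col6a3 had 67.5, 184 and 59.9 TPM, highest in control 2.

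The leading laminin chains were alpha-5, beta-1 and gamma-1. Lama5 had 375 ± 50.0 TPM, Lamb1 397 ± 21.2 and Lamc1 859 ± 43.1, and each led its chain family in all 3 libraries. Matrix-modifying enzymes were high: Lox, which crosslinks collagen and elastin, had 2453 ± 182 TPM and Mmp2, a gelatinase, 1763 ± 245 TPM. Serpinh1, the collagen chaperone, had 5023 ± 655 TPM. Inhibitors of metalloproteinases were led by Timp2 (2785, 1861 and 2842 TPM, lowest in control 2) and Timp3 (1164 ± 97.4 TPM), and Timp4, a form found in adult heart, had 3, 2 and 1 counts.

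Several genes of energy metabolism have processed copies elsewhere in the genome, and their levels are uncertain. Aldoa (919 ± 281 TPM), Pkm (571 ± 131 TPM) and Ldha (531 ± 243 TPM) led glycolysis, with Ldha above Ldhb 5.64-fold and 8.54-fold on transcript length. Gapdh, an enzyme of the same pathway, had 8.63, 8.96 and 10.1 TPM, a level that is uncertain because only reads with a unique match were counted and 71.0% of its 25-base transcript words are unique. Pgk1 has 44.8% unique words and is uncertain for the same reason. Hexokinases 1 and 2 were close, at 58.4 ± 9.34 and 61.5 ± 9.72 TPM, and Hk1 led on transcript length. Ckb, the brain-type creatine kinase, exceeded the muscle-type Ckm 17.8-fold and 33.0-fold on transcript length. Pgam2, a muscle-type form, exceeded Pgam1 2.69-fold, with 62.5% of 25-base words unique in the less unique gene. The log2 ratio of Pgam2 to Pgam1 fell from 1.43 to 0.782 with only the unique part of each gene's length. With no length scaling it was 0.191, so the size of the lead is uncertain. The muscle-type Eno3 exceeded Eno1 2.05-fold by exon union, while Eno1 led on transcript length.

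Muscle-type forms of several mitochondrial genes were lower than the general forms. Cox6a1 had 994 ± 121 TPM against 33.1 ± 16.4 for the heart-type Cox6a2, and Cox8a 1074 ± 96.1 TPM against 13.6 ± 9.46 for Cox8b. Slc25a4, the heart and muscle form of the ADP/ATP carrier, was an exception and led its family 2.75-fold over Slc25a5. With only the unique part of each gene's length, the log2 ratio fell from 1.46 to 0.866. In the least unique gene of this family 46.0% of 25-base words are unique, so the size of the lead is uncertain. Fatty acid oxidation genes were present at lower levels, led by Etfb (222 ± 17.7 TPM), Acadl (156 ± 23.1 TPM) and Acaa2 (152 ± 35.2 TPM), and 24 of 25 reached 1 TPM in every library. Cpt1b, the muscle form of the transporter that admits fatty acids to mitochondria, had 0.610, 0.272 and 0.746 TPM, while Cpt1a and Cpt1c had 56.9 ± 7.78 and 58.9 ± 11.7 TPM. Only 19.9% of the 25-base words of Cpt1b are unique among annotated transcripts, so its level is uncertain. Ppara, a regulator of these genes, had 1.19 ± 0.185 TPM against 33.6 ± 2.22 for Ppard.

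Cardiac transcription factors were all detected, 30 of 30 at 1 TPM or more in every library, against 12258 of all 21551 protein-coding genes. Gata4 had 339, 313 and 343 TPM and Gata6 254, 196 and 261 TPM, and on transcript length Gata6 led with a Gata4 to Gata6 ratio of 0.808 ± 0.0919. Tbx20 had 320, 166 and 245 TPM, lowest in control 2, and Srf had 273 ± 9.27 TPM. Hand2 (174 ± 21.3 TPM) exceeded Hand1, which marks the left ventricle, 23.3-fold. Nkx2-5, an early cardiomyocyte factor, had 39.0, 44.3 and 39.1 TPM. Tead1, a partner of YAP, had 393 ± 66.7 TPM and was above Gata4, the highest factor of the cardiac list, in all 3 libraries. Gata4, Gata6, Tbx20 and Hand2 are expressed in cardiac mesenchyme and epicardium as well as in cardiomyocytes.

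By the mean, the 47 secreted ligands were led by Igf2 (1091 ± 751 TPM), whose libraries differed widely. Only 36.6% of the 25-base words of Igf2 are unique. Cxcl12, a chemokine, had 1179, 568 and 970 TPM, lowest in control 2. Csf1, the ligand of Csf1r, had 719 ± 107 TPM. Tgfb3 led its family at 528 ± 35.6 TPM, above Tgfb2 (177 ± 6.63 TPM) and Tgfb1 (93.6 ± 8.51 TPM). Bmp4 had 309 ± 39.4 TPM and Bmp1, a procollagen protease counted with this family, 148 ± 18.4 TPM, and on transcript length Bmp1 led. Receptors were lower as a list, with Igf2r (577 ± 66.9 TPM), Il6st (271 ± 33.4 TPM), Pdgfrb (266 ± 37.6 TPM) and Fzd2 (257 ± 11.8 TPM) highest. Igf2r also clears IGF2. Pdgfrb exceeded Pdgfra (89.1 ± 14.3 TPM) 2.99-fold and Fgfr1 (137 ± 16.3 TPM) led the FGF receptors.

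DNA methylation enzymes, the targets of the other siRNAs of the series, had these levels in control cells. Dnmt3a (chr12:3806007-3914443, + strand), a de novo methyltransferase, had 68.8, 76.2 and 80.2 TPM. Dnmt3b (chr2:153649450-153687730, + strand), the other de novo enzyme, had 4.17, 3.92 and 4.12 TPM, and its counts were 155, 131 and 117. Dnmt3a exceeded Dnmt3b 16.5-, 19.4- and 19.5-fold, and 26.9 ± 2.48-fold on transcript length. Dnmt1, the maintenance enzyme, had 110, 83.0 and 90.1 TPM, above Dnmt3a 1.60-, 1.09- and 1.12-fold, while on transcript length the ratio was 0.929 ± 0.208, so the order of Dnmt1 and Dnmt3a was not settled. Dnmt3l, a cofactor of germ cells, had 0, 8 and 7 counts. Tet3 (59.0 ± 4.95 TPM) led the enzymes that oxidize methylcytosine, above Tet2 (13.9 ± 1.38 TPM) and Tet1 (6.42 ± 1.05 TPM). Mbd3 (241 ± 28.1 TPM) and Mbd2 (132 ± 2.65 TPM), members of the methyl-binding domain family, were the highest of the 14-gene list.

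Transcripts of Xist and of the Y chromosome were both present in every library. Xist, the RNA that silences an X chromosome in females, had 129, 91.8 and 154 TPM. Ddx3y, on the Y chromosome, had 56.9, 49.7 and 48.6 TPM, and its X-linked partner Ddx3x 389, 329 and 372 TPM, a ratio of 6.83, 6.62 and 7.65. Eif2s3y, Uty and Kdm5d, also on the Y, had 23.0 ± 2.64, 4.84 ± 0.200 and 4.13 ± 0.665 TPM. The ratio of Xist to Ddx3y was 2.27, 1.85 and 3.16, lowest in control 2.

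Subunits that work in the same complex were compared as a rough guide to how far TPM can order genes. In the chaperonin CCT, whose 8 subunits form each ring together, the highest subunit, Cct2 (510 ± 30.3 TPM), exceeded the lowest, Cct3 (96.5 ± 8.03 TPM), 5.29-fold, and on transcript length the range was 2.20-fold. In the exosome core, with 8 of 9 listed genes matched, the range was 7.41-fold and 2.15-fold on transcript length. The V1 part of the proton pump, whose subunits are not all present in equal numbers, spanned 3.64-fold and 3.37-fold. The 14 core proteasome genes spanned 22.0-fold, from Psma3 (14.7 ± 3.16 TPM) to Psmb4 (323 ± 20.6 TPM), and 26.6-fold on transcript length, with 74.9% of the 25-base words of Psma3 unique. Within a complex the SD of log2 levels between subunits was 0.799 for CCT, against a mean SD between libraries of 0.0778. Several ratios between genes given above are smaller than most of these ranges, such as Myl9 to Myl7, Slc25a4 to Slc25a5 and Pdgfrb to Pdgfra. Such orders are of counts per annotated base and may not be orders of transcript number. Subunits of a complex need not have equal transcript numbers, so these ranges cannot measure how well TPM orders transcripts.

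**Figure D4:**
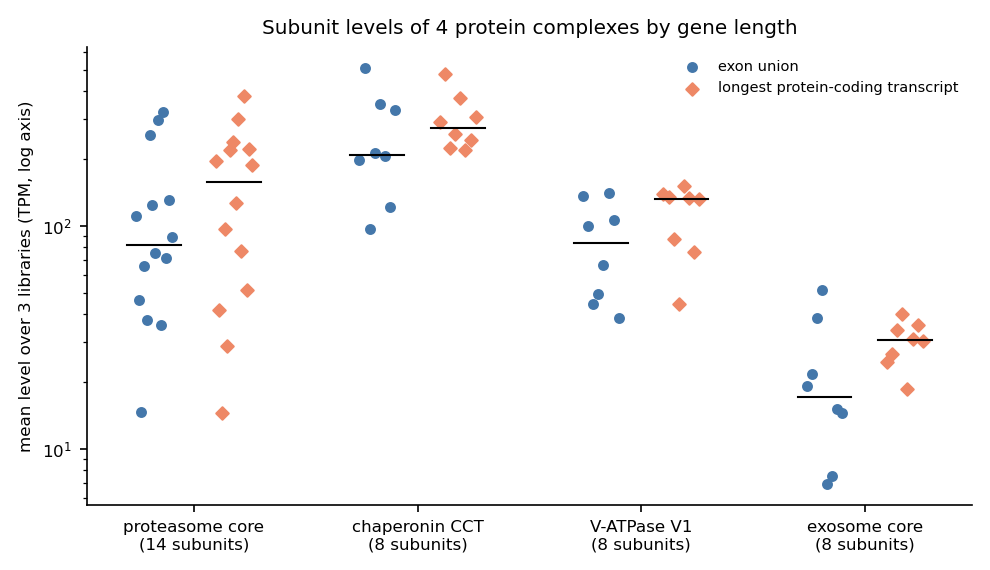
Mean TPM over 3 control libraries of the subunits of 4 complexes on a log axis, by exon union (circles) and on transcript length (diamonds), with a line at the median. The CCT subunits spread 5.29-fold by exon union and 2.20-fold on transcript length, and the proteasome core 22.0-fold and 26.6-fold.

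Most genes agreed between the 3 libraries. Among 9353 protein-coding genes with a mean of 10 TPM or more, the median ratio of the highest to the lowest library was 1.21, and 8196 genes had a ratio under 1.5. Genes with the smallest spread were Cmc1 (34.39, 34.41 and 34.43 TPM), Hdac2 (127.5, 127.6 and 127.4 TPM) and Mrps17 (18.10, 18.12 and 18.08 TPM). A ratio of 2 or more was found in 325 genes, 3.48%, of which 145 were highest and 136 lowest in control 2, and 44 had control 2 in between. Among all 12258 protein-coding genes at 1 TPM or more in every library, 28.9% were highest and 45.7% lowest in control 2. The widest ratio was that of Ndufa4l2, a hypoxia-induced mitochondrial protein, at 1.75, 186 and 8.20 TPM, a 106-fold range. Trim30a, Oas2, Ifit3, Ifit3b and Tgtp2 were also among the 10 widest, and all 5 are known as interferon-induced and lowest in control 2.

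The interferon-stimulated genes as a list were lower in control 2. Bst2, an antiviral membrane protein, had 1248, 621 and 1530 TPM. Isg15, a ubiquitin-like modifier, had 449, 157 and 570 TPM, and Ifit1, which binds foreign RNA, 204, 39.9 and 226 TPM. Of the 25 genes, 23 reached 1 TPM in every library, and all 23 were lowest in control 2, where 45.7% of all 12258 protein-coding genes above that level were lowest. The other 2 were Mx1 (2.18, 0.929 and 3.66 TPM) and Ifnb1, interferon beta, which had 1, 0 and 0 counts. The sum was 3058, 1286 and 3814 TPM, and the median member differed by −1.70 on the log2 scale between control 2 and the mean of the others.

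Genes of glycolysis and the response to low oxygen were highest in control 2. Ldha, which makes lactate, had 387, 812 and 394 TPM. Vegfa, an oxygen-regulated growth factor of vessels, had 142, 426 and 212 TPM, and Slc2a1, the glucose transporter GLUT1, 101, 270 and 126 TPM. Of 21 listed genes, 20 were highest in control 2 and the exception was Gapdh, while 28.9% of all protein-coding genes at 1 TPM or more were highest there. Egln3 (30.4, 153 and 46.4 TPM) and Bnip3 (16.4, 110 and 27.3 TPM), named after their values were seen, had the largest differences on the list. The sum was 2741, 5351 and 2925 TPM. Other genes moved with it: H19, an imprinted noncoding RNA (chr7:142575529-142578143, − strand), had 1726, 5616 and 1726 TPM, and its neighbour Igf2, a fetal growth factor, 814, 1941 and 519 TPM, with 36.6% of Igf2 25-base words unique. Igf2 exceeded Igf1 7.94-, 27.6- and 10.2-fold. Cell type lists also differed in control 2: the smooth muscle and pericyte genes summed to 16212, 21156 and 14949 TPM, highest there, and the epicardial genes to 5380, 4511 and 5640 TPM, lowest there. The sarcomere genes summed to 6405, 8207 and 6661 TPM, and 22 of 29 were highest in control 2. Of the cardiac calcium and channel genes 12 of 18, and of the endothelial genes 10 of 15, were highest there. The endothelial sum was 489, 518 and 544 TPM, highest in control 3 and between the others in control 2. The part of these cell types in the differences was not tested.

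Promoters of 5 genes from these lists are shown as examples of windows that hold a searched motif. The 2 motifs searched on both strands were GAAA, any 2 bases, GAAA, the core of the element bound by interferon-activated factors, and ACGTG, the core of the element bound by hypoxia-inducible factors, each within the 250 bases before the annotated start in RefSeq (GRCm38.p6). Where a run reads as the reverse complement, the capitals mark it as such, and the palindrome CACGTG counts on both strands. The first motif was found in 8 of 20 interferon-stimulated genes with a promoter in the table, 40%, and in 3.46% of 27025 genes. ACGTG was found in 12 of 20 genes of the hypoxia and glycolysis list, 60%, and in 18.5% of all genes. In the crossed search each motif was in 1 of 20 promoters of the other list, 5%. The windows lie at chr4:156200830-156200929 (Isg15, − strand), chr8:71537542-71537641 (Bst2, − strand), chr19:34583362-34583461 (Ifit3, + strand), chr7:46845725-46845803 (Ldha, + strand) and chr9:59657107-59657201 (Pkm, + strand), and are printed along the gene's strand with motif letters in capitals.
Isg15: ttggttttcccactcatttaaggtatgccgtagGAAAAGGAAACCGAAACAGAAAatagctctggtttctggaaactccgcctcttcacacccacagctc
Bst2: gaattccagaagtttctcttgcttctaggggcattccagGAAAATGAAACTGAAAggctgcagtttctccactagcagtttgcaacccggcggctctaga
Ifit3: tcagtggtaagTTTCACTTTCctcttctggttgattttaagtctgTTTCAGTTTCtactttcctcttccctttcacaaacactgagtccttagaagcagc
Ldha: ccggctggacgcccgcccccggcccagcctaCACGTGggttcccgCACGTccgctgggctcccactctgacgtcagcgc
Pkm: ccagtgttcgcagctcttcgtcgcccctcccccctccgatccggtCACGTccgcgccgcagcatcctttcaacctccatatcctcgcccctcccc
In Isg15 and Bst2 the motif occurs more than once in overlapping copies, 3 in Isg15 and 2 in Bst2, and Ldha holds 5 matches of ACGTG in its 250 bases. A match describes letters in the sequence, not binding in these cells, and the lists were chosen for what is known of their genes.

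**Figure D5:**
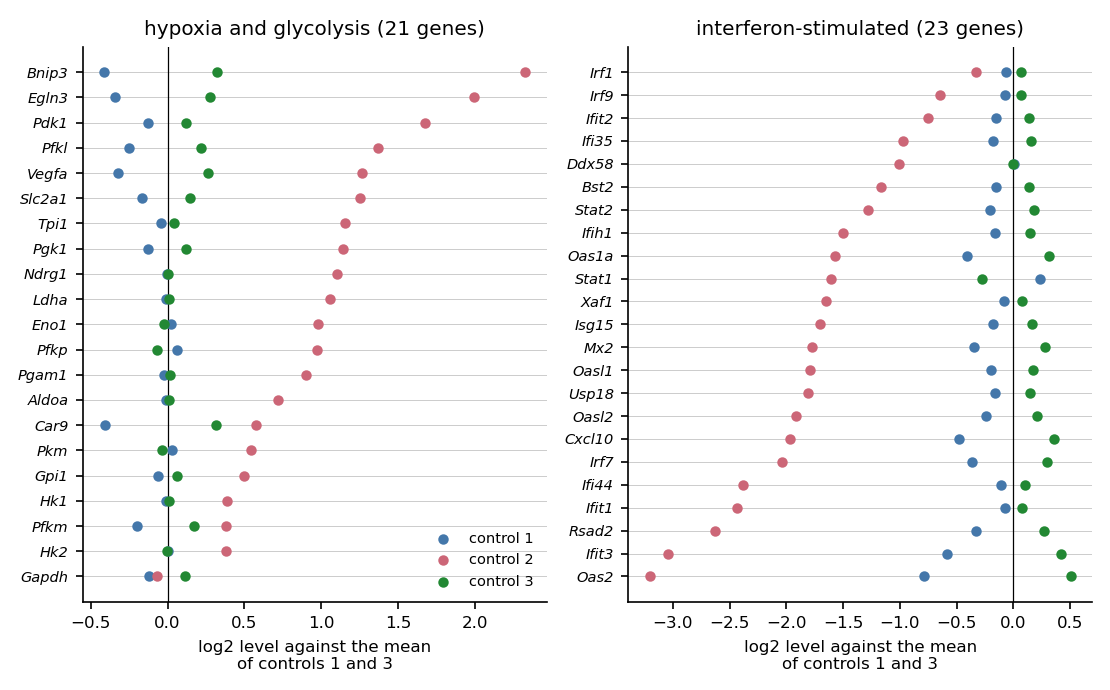
Log2 TPM of each control library (coloured points) against the mean of controls 1 and 3, with 1 row per gene at 1 TPM or more in every library, for the hypoxia and glycolysis list (left) and the interferon-stimulated list (right). The control 2 points of all 23 interferon-stimulated genes lie below 0 with a median of −1.70, and those of the 21 hypoxia and glycolysis genes lie above 0, except Gapdh, with a median of 0.98.

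Genes of the cell cycle were mostly highest in control 1. Mki67, a protein of dividing cells, had 156, 107 and 114 TPM and Plk1, a mitotic kinase, 136, 120 and 114 TPM. Of 30 proliferation genes, 29 were highest in control 1, as were 38.4% of all protein-coding genes at 1 TPM or more, and the list summed to 2228, 1793 and 1687 TPM. Ccnb2, a mitotic cyclin, was the exception at 149, 150 and 109 TPM. The order was shared by lists outside the cell cycle: 8 of 8 genes of the V1 part of the proton pump, 7 of 8 of CCT, 7 of 8 of the exosome core and 11 of 14 of the proteasome core were highest in control 1 too. Genes listed as inhibitors of the cycle were expressed at the same time. The list was led by Ccng1, a cyclin counted with it (1020, 787 and 1248 TPM). Next were Cdkn1a, the p53 target p21 (438, 386 and 535 TPM), and Cdkn2b (304 ± 50.1 TPM). D-type cyclins were led by Ccnd2 (857 ± 108 TPM), 6.98-fold above Ccnd3 and 2.50-fold on transcript length.

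Genes of growth factor response and of protein folding were high in all 3 libraries. Ccn1 and Ccn2, matricellular targets of serum and YAP signalling, had 2493 ± 443 and 1491 ± 192 TPM. Egr1, an immediate early factor, had 565, 535 and 490 TPM. All 21 genes of that list reached 1 TPM in every library. The chaperones Calr (1412 ± 140 TPM) and Hspa5 (900 ± 57.9 TPM) led the 20 genes of the unfolded protein response list, whose sum, 7091, 6841 and 6401 TPM, differed little between the libraries. Imprinted and long noncoding RNAs included Malat1 (1475, 1241 and 2438 TPM), Grb10 (950 ± 85.9 TPM) and Meg3 (167 ± 38.5 TPM).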

How the data were processed

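RNA was measured in 3 libraries, and the authors deposited 1 table of whole-number read counts per gene for each, without normalization. Per the submitters' processing notes, FastQC, TopHat2, HTSeq and the mm10/GRCm38 build were used, with no versions or roles stated. Neither the annotation release nor the strand option is given in the sources used here. The 5 summary lines of each table, 53.0% to 54.2% of its total, were left out. Of 43629 gene identifiers, 1081, with 0.0695% of the counts, had no entry in GENCODE M21 (GRCm38), which gave symbols, coordinates and lengths.

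CPM used TMM-scaled totals (edgeR 4.0.16, R 4.3.3). TPM divided counts by the union of annotated exons and scaled the result to a sum of 1000000 over protein-coding genes. Dispersion came from an edgeR intercept-only design over 15044 genes with a minimum count of 10, and the calculation was tested on simulated data. The libraries differed by more than counting noise (chi-square divided by its degrees of freedom 28.9 to 59.7 per pair), so none was treated as a repeat deposit of another, which does not show that they are separate cultures. With 3 libraries no exact two-sided p below 0.25 can be had, so no test was run, and orders are given by library.

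Members, 32 gene lists and 87 families were chosen with earlier results of these data known. Of 817 symbols 814 were matched, and Muc16, Norad and Exosc6 were not. Named genes were the 20 highest by CPM and by TPM, the leading and next member of a family and any member of a family of 6 or fewer, the defining genes, the 4 highest and any members at 0 of a list, the 10 most and least variable genes, Vcam1, the methyltransferases and the sex-linked genes. Any other named gene was chosen after its values were seen. Some genes that fall under the rule are not reported here. Alternatives were other gene lengths, scaling over all genes, DESeq2 1.42.0 size factors, no filter on low counts and leaving out each library. Uniqueness was computed as the share of 50-base or 25-base words of a gene's transcripts found in no other annotated gene. Intervals and limits on a count of 0 cover counting error only.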

Additional observations from a re-analysis of the deposited data

How the results depend on the processing

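No paired analysis was possible because a single group of 3 libraries was described and nothing was compared between groups. For the summary results, 44 recomputed values stayed near the reported ones and 11 moved further. The matrix share was 14.6% with no length scaling and 6.12% scaled over all genes. The sarcomere share was 0.835% with the longest transcript, 0.963% with the longest protein-coding transcript and 0.407% scaled over all genes. The ribosomal protein share was 2.49% with transcript-unique length, 0.535% with no length scaling and 0.995% over all genes. The log2 ratio of fibroblast to sarcomere sums was 3.26 with the longest transcript, 3.02 with the longest protein-coding transcript and 4.17 with no length scaling.

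The leading member by mean TPM was kept in 78 of 87 families with the longest transcript, 77 with the longest protein-coding transcript, 84 with transcript-unique length and 74 with no length scaling. Where the ratio of the first to the next member was recomputed, it reversed in these families, given as log2 ratios. With the longest transcript they were Myl6 to Myl3 (−0.64), Acta2 to Actb (−0.31), Tpm4 to Tpm1 (−1.09), Eno3 to Eno1 (−0.22), Hk2 to Hk1 (−0.81), Cpt1c to Cpt1a (−0.0014), Gata4 to Gata6 (−0.087), Mef2d to Mef2a (−0.50) and Dnmt1 to Dnmt3a (−0.13). With the longest protein-coding transcript they were Myl6 to Myl3 (−0.038), Acta2 to Actb (−0.31), Tpm4 to Tpm1 (−1.09), Eno3 to Eno1 (−0.22), Hk2 to Hk1 (−0.81), Bmp4 to Bmp1 (−0.084), Gata4 to Gata6 (−0.31), Mef2d to Mef2a (−0.50) and Dnmt1 to Dnmt3a (−0.13). With transcript-unique length they were Acta2 to Actb (−0.071), Fabp5 to Fabp3 (−0.17) and Cox7a2 to Cox7a2l (−0.083). With no length scaling they were Acta2 to Actb (−0.22), Tpm4 to Tpm1 (−1.53), Eno3 to Eno1 (−0.59), Hk2 to Hk1 (−0.44), Cpt1c to Cpt1a (−0.41), Cox7a2 to Cox7a2l (−0.52), Bmp4 to Bmp1 (−0.92), Gata4 to Gata6 (−0.24), Mef2d to Mef2a (−0.54) and Dnmt1 to Dnmt3a (−0.85). Leaving out each library in turn gave ranges that cross 0 for Myl6 to Myl3 (−0.26 to 0.37, lowest without control 1), Acta2 to Actb (−0.045 to 0.15, lowest without control 2), Tpm4 to Tpm1 (−0.0079 to 0.084, lowest without control 1), Hcn4 to Hcn2 (−0.086 to 0.17, lowest without control 2), Cpt1c to Cpt1a (−0.14 to 0.24, lowest without control 3) and Cox7a2 to Cox7a2l (−0.038 to 0.37, lowest without control 1). Leaders also changed in families without values here: integrin alpha (Itga3 to Itgav) with the longest transcript, the longest protein-coding transcript and no length scaling, regulatory light chains (Myl9 to Myl12a) and Kir2 channels (Kcnj4 to Kcnj2) with no length scaling, and, without control 3, muscle and nonmuscle myosin heavy chains (Myh9 to Myh10) and mitochondrial creatine kinases (Ckmt1 to Ckmt2). Beyond the lengths themselves, the cause was not tested. A length that counts uniqueness over the genome was not run. The values rest on 3 libraries, on uniquely aligned reads only, and on gene totals that do not separate transcripts of a gene.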
